A study of Homo sapiens with 12 samples.

Results

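The MYC, MAX and MXD network is a group of transcription factors of the basic helix-loop-helix leucine zipper type that bind DNA in pairs built on MAX or on its relative MLX. Its genes were taken by name from the deposited table and are MYC, MAX, MXD1, MXD3, MXD4, MXI1, MNT, MLX, MLXIP and MGA, 10 of the 58302 genes listed. All 10 passed the filter on low counts, so each was tested. MYC needs MAX as its partner to bind E-box DNA and to activate genes of ribosome assembly, nucleotide synthesis and replication. The MXD proteins, MXI1, MNT and MGA compete for MAX and repress transcription through SIN3, NCOR or polycomb-type complexes. MLX takes the place of MAX for MLXIP (MondoA), which responds to glycolytic intermediates, and in diffuse large B-cell lymphoma the MYC gene is a frequent site of rearrangement.

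RNA sequencing was used to measure expression in the established diffuse large B-cell lymphoma lines OCI-LY3 and SU-DHL6 with and without selinexor, an inhibitor of the nuclear export receptor XPO1. The 4 groups were selinexor-treated OCI-LY3, untreated OCI-LY3, selinexor-treated SU-DHL6 and untreated SU-DHL6, with 3 libraries each. The labels give both lines as WT, OCI-LY3 as ABC-DLBCL (activated B-cell type) and SU-DHL6 as GCB-DLBCL (germinal centre type), and untreated cells were kept in the same medium without the drug. The protocols name 300 and 100 nM and 24 and 48 h, but tie no dose or time to a library or a line, so the lines may differ in both. Each type is represented by a single line. The design text speaks of biological triplicates and the labels name no separate cultures, so the p-values measure the spread between these libraries, which may be technical.

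Library totals ranged from 14210200 to 16405842 counts and replicates of a group correlated at 0.981 to 0.986. The 5 markers of the activated type summed to between 1971 and 2699 CPM (counts scaled to a common library total with TMM factors) in OCI-LY3 and between 178 and 256 CPM in SU-DHL6. The 6 germinal centre markers summed to between 133 and 156 CPM in OCI-LY3 and between 506 and 726 CPM in SU-DHL6. The 5 B-cell markers together summed to at least 1664 CPM in every library. Markers of T cells summed to at most 2.17 CPM and those of myeloid cells to at most 4.60 CPM. Epithelial and stromal markers summed to at most 0.186 CPM in SU-DHL6 and to between 22.3 and 38.0 CPM in OCI-LY3. Nearly all of the OCI-LY3 sum was COL1A1, with means of 32.4 CPM in treated and 22.5 CPM in untreated cells. EPCAM was at 0 there, and the group means of COL1A2 and KRT8 were at most 0.165 and 0.0958 CPM. The part of these markers in the results was not tested. Selinexor-treated OCI-LY3 replicate 3 and untreated SU-DHL6 replicate 1 stood apart from their groups on the fourth principal component (1.21% of the variance), and results that depended on them are given with and without them. In these bulk libraries, fewer cells of a kind and less RNA per cell cannot be told apart.

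In OCI-LY3, selinexor was accompanied by a strong rise of MXD4 and by falls of MXD3, MXI1 and MLXIP. In SU-DHL6, MLXIP and MGA rose while MXD3 and MLX fell. MXD3 was the member that fell in both lines, and MLXIP was called in opposite directions. Of the 10 members, 1 rose and 3 fell in OCI-LY3, where 22.2% of the 16474 tested genes rose and 22.2% fell (edgeR quasi-likelihood test, adjusted p under 0.05). In SU-DHL6, 2 members rose and 2 fell, beside 20.4% of all tested genes that rose and 22.8% that fell. These shares are near those of all genes, so the number of members called is no result about the network. The treated and untreated libraries did not overlap for 6 of the 10 members in OCI-LY3 and for 7 in SU-DHL6, against 57.5% and 51.1% of all tested genes in those lines. The median log2 fold change of the members was -0.48 in OCI-LY3 and 0.26 in SU-DHL6, against 0 and 0.0028 over all tested genes.

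The difference between the responses (SU-DHL6 minus OCI-LY3, on the log2 scale) was called higher for MLXIP and MGA and lower for MXD4 and MXD3. These 2 and 2 members compare with 17.0% of all genes called higher and 19.9% called lower. The choice of scaling matters here: with library totals in place of TMM factors, the median log2 fold change of all genes moved to -0.087 in OCI-LY3 and 0.27 in SU-DHL6, and that of the difference to 0.35. The share of calls that were rises was 40.1% in OCI-LY3 and 69.7% in SU-DHL6 under total counts, against 50.0% and 47.2% under TMM scaling. Under total counts, 5451 genes rose and 2367 fell in SU-DHL6, against 3365 and 3758 under TMM scaling.

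**Figure D1:**
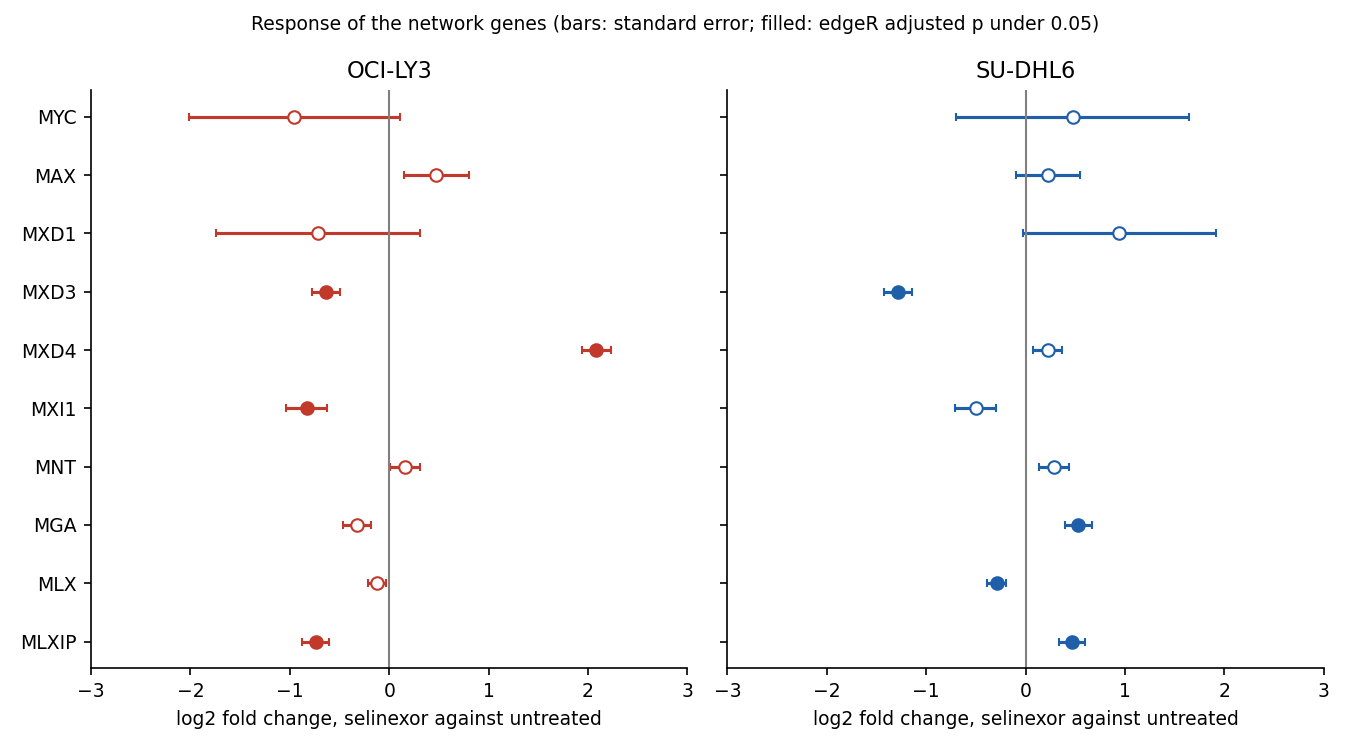
Log2 fold change of each network gene, selinexor against untreated, in OCI-LY3 (left panel) and SU-DHL6 (right panel). Points are estimates from 3 treated and 3 untreated libraries, bars are standard errors, and filled points passed an adjusted p under 0.05. MXD4 stands at 2.09 in OCI-LY3 and 0.22 in SU-DHL6, and the bars of MYC and MXD1 span about a log2 unit to each side.

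MYC, the activating member, was set apart by its replicates rather than by its group means. It lies at chr8:127735434-127741434 on the plus strand of GRCh38 and overlaps no other gene of GENCODE release 29. Selinexor-treated OCI-LY3 had 12.7, 152 and 11.9 CPM of MYC, and untreated OCI-LY3 had 18.1, 164 and 161 CPM. The second treated library and the second and the third untreated libraries were thus high, the other 3 were low, and the groups overlapped. In SU-DHL6, MYC was low throughout, with 15.7, 8.86 and 8.61 CPM in the treated libraries against 8.00, 8.02 and 7.80 CPM in the untreated ones. These groups did not overlap, and the untreated libraries lay within a 1.03-fold range.

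MYC did not pass the test in either line, with a log2 fold change of -0.95 ± 1.06 in OCI-LY3 (SE, n = 3 each, adjusted p = 0.511 by edgeR) and 0.47 ± 1.17 in SU-DHL6 (adjusted p = 0.790). Fitted on the SU-DHL6 libraries alone, the value there was 0.49 with an adjusted p of 0.124 by edgeR. The result in OCI-LY3 depended on the second treated library: without it MYC was called, with a log2 fold change of -3.22 (adjusted p = 0.0238 by edgeR), and the difference between the lines' responses, 1.43 ± 1.58 with all libraries, became 3.70 (adjusted p = 0.0412). The 12.8-fold range of MYC within treated OCI-LY3 and its 9.04-fold range within untreated OCI-LY3 were unusual for these libraries. Of the genes with a mean of at least 5 CPM in a group, 0.367% to 0.493% had a range above 5-fold and 2.80% to 4.70% had a range above 2-fold.

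Over 57 genes that MYC is known to activate, the median log2(CPM + 0.5) was 6.40, 6.21 and 6.25 in the treated OCI-LY3 libraries, lowest in the second one, where MYC was high. In the untreated OCI-LY3 libraries it was 6.63, 6.79 and 6.81, lowest in the first one, where MYC was low. Gene by gene, the median deviation from the group mean of log2 CPM was 0.047, -0.024 and -0.015 in the 3 treated OCI-LY3 libraries. In the untreated OCI-LY3 libraries it was -0.025, 0.00020 and 0.023. Over all 12 libraries, these medians stayed between -0.055 and 0.047. MYC protein was not measured here, so the levels above are of RNA alone.

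**Figure D2:**
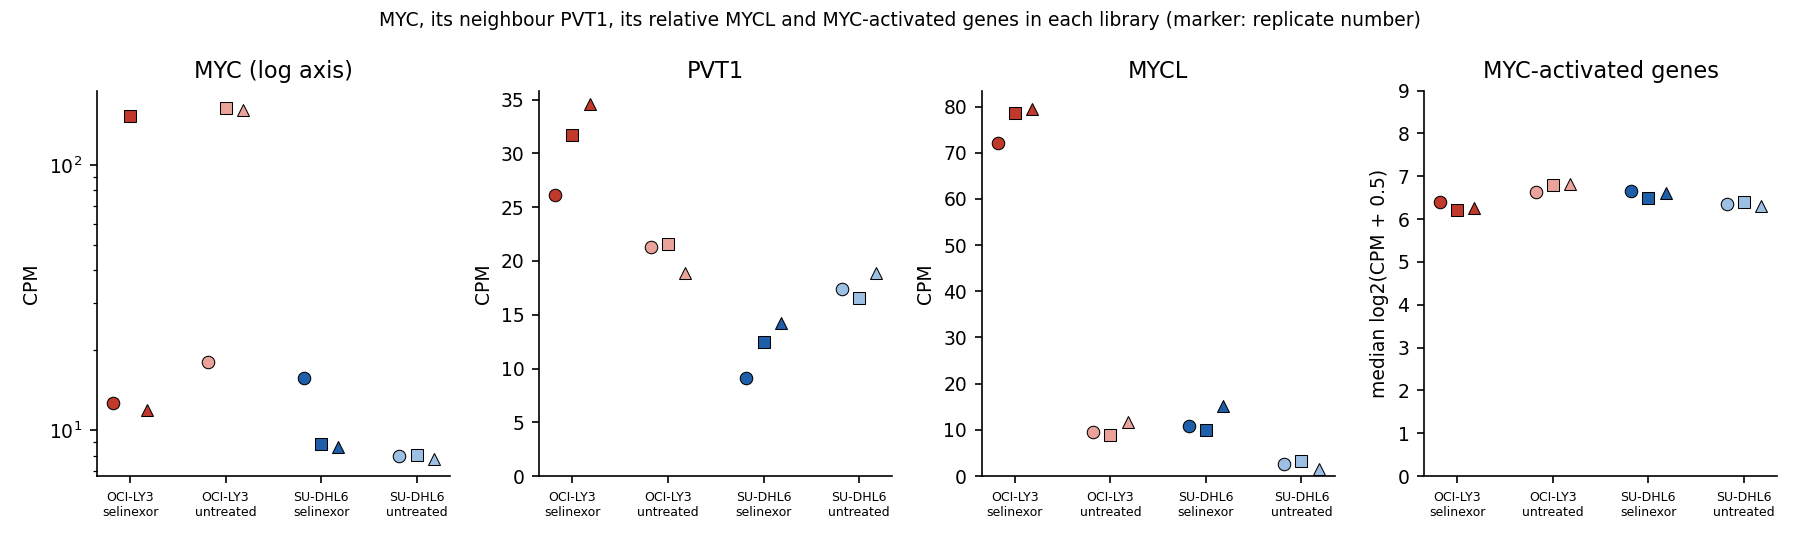
Level in each library, by group, of MYC (CPM, log axis), of PVT1 and of MYCL (CPM), and the median log2(CPM + 0.5) of 57 MYC-activated genes; circles, squares and triangles are replicates 1, 2 and 3. MYC reached 152 to 164 CPM in 3 OCI-LY3 libraries and stayed at or below 18.1 CPM in the other libraries, while the median of the MYC-activated genes lies between 6.21 and 6.81 in all 12 libraries.

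The genes whose log2 CPM was most like that of MYC over the 12 libraries were TOMM5, AL355001.2, PRR7, ARHGAP30 and AP3S1, with Pearson correlations of 0.859, 0.850, 0.839, 0.830 and 0.817 among the 9267 genes whose mean log2 CPM reached 3. These values rest in part on the difference between the lines. By deviations from the group means, which leave that difference out, the most alike were HSD17B12, MED29, C1orf216, AL391244.1 and TOR2A, at 0.895, 0.889, 0.881, 0.877 and 0.864. HSD17B12, an enzyme of fatty acid elongation, had 28.0, 54.1 and 31.0 CPM in treated OCI-LY3 and 35.9, 64.2 and 62.0 CPM in untreated OCI-LY3, high in the same 3 libraries as MYC but by a far smaller factor. The correlations describe 12 libraries and share their depth and scaling.

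PVT1, the long noncoding RNA gene next to MYC, had 26.1, 31.7 and 34.6 CPM in treated OCI-LY3 against 21.3, 21.6 and 18.9 CPM in untreated OCI-LY3. The SU-DHL6 values were 9.08, 12.4 and 14.3 CPM with selinexor against 17.4, 16.6 and 18.9 CPM without. Neither pair of groups overlapped: PVT1 rose by 0.58 ± 0.16 in OCI-LY3 (log2, SE, adjusted p = 0.00847 by edgeR) and fell by 0.56 ± 0.16 in SU-DHL6 (adjusted p = 0.0121), and the responses differed by -1.14 ± 0.23 (adjusted p = 0.00133). MYCL, the MYC paralogue first known from lung cancer, rose in both lines. It had 72.2, 78.5 and 79.6 CPM in treated OCI-LY3 against 9.54, 8.99 and 11.7 CPM in untreated OCI-LY3, and 10.7, 10.1 and 15.1 CPM in treated SU-DHL6 against 2.51, 3.17 and 1.59 CPM in untreated SU-DHL6. The log2 fold changes of MYCL were 2.93 ± 0.20 in OCI-LY3 (adjusted p = 6.04e-08 by edgeR) and 2.29 ± 0.22 in SU-DHL6 (adjusted p = 1.82e-06), and the test of their difference gave -0.64 ± 0.29 (adjusted p = 0.103). MYCN had no count in any library, and MLXIPL, the glucose-responsive relative of MLXIP, had at most 6 counts. MYCBP2, a large ubiquitin ligase that binds MYC, fell by 0.48 ± 0.16 in OCI-LY3 (adjusted p = 0.0241 by edgeR) and rose by 0.59 ± 0.16 in SU-DHL6 (adjusted p = 0.00791). Its fall in OCI-LY3 was not called without the first or second treated library or without the first untreated one of that line. MYCBP, a small MYC-binding protein, was not called in either line.

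MAX, the shared partner of MYC and of its antagonists, had 27.6, 45.1 and 31.2 CPM in treated OCI-LY3 against 22.2, 32.6 and 19.9 CPM in untreated OCI-LY3. Treated SU-DHL6 had 29.5, 72.6 and 51.6 CPM of MAX against 33.4, 47.9 and 50.0 CPM in untreated SU-DHL6. The groups overlapped in both lines, the second library was the highest in 3 of the 4 groups, and MAX varied up to 2.46-fold within treated SU-DHL6. MAX did not pass the test, with log2 fold changes of 0.48 ± 0.33 in OCI-LY3 (SE, n = 3 each, adjusted p = 0.273 by edgeR) and 0.23 ± 0.32 in SU-DHL6 (adjusted p = 0.612), and the SU-DHL6 value was -0.11 without the second treated library. The MAX gene (chr14:65006174-65102695, minus strand, GRCh38) overlaps FNTB and CHURC1-FNTB on the other strand without shared exon bases. It shares 184 exon bases with the antisense gene AL139022.1, which had 41 counts in all libraries together.

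MXD1, an antagonist of MYC known from differentiating cells, disagreed between replicates in all 4 groups. Treated OCI-LY3 had 10.4, 2.26 and 2.79 CPM against 9.82, 2.60 and 12.9 CPM in untreated OCI-LY3. Treated SU-DHL6 had 31.0, 5.95 and 6.68 CPM against 3.59, 15.7 and 3.18 CPM in untreated SU-DHL6. The groups overlapped, the range within a group was between 4.61-fold and 5.21-fold, and MXD1 did not pass the test in OCI-LY3 (log2 fold change -0.72 ± 1.02, SE, adjusted p = 0.616 by edgeR) or in SU-DHL6 (0.94 ± 0.97, adjusted p = 0.477). The SU-DHL6 value was -0.26 without the first treated library. MXD1 (chr2:69897688-69942945, plus strand) shares 237 exon bases with SNRNP27, a splicing protein gene on the same strand whose summed count was 276% of that of MXD1. SNRNP27 itself stayed within 1.09-fold to 1.35-fold inside each group. No source used here states how reads in shared bases were assigned or whether strand was used, so values of overlapping genes are uncertain.

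MXD3, the MXD member associated with the S phase of the cell cycle, fell in both lines. Treated OCI-LY3 had 30.1, 31.9 and 29.2 CPM against 46.0, 51.1 and 44.5 CPM in untreated OCI-LY3. Treated SU-DHL6 had 31.4, 21.9 and 23.3 CPM against 53.0, 67.6 and 66.2 CPM in untreated SU-DHL6. No treated library reached the lowest untreated library of its line. The log2 fold change was -0.64 ± 0.14 in OCI-LY3 (SE, n = 3 each, adjusted p = 0.00217 by edgeR) and -1.29 ± 0.14 in SU-DHL6 (adjusted p = 6.59e-06).

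The difference between the responses of MXD3 was -0.65 ± 0.20 (SU-DHL6 minus OCI-LY3, adjusted p = 0.0193 by edgeR). It was not called without the second treated SU-DHL6 library (-0.55, adjusted p = 0.0515), without the third untreated one (-0.56, adjusted p = 0.0627) or under total counts (-0.27, adjusted p = 0.265). MXD3 (chr5:177301461-177312757, minus strand) shares 926 exon bases with RAB24 on the same strand and 1158 with PRELID1 on the opposite strand. RAB24, a small GTPase gene, fell by 0.95 ± 0.16 in OCI-LY3 and had a log2 fold change of -0.022 ± 0.15 in SU-DHL6, where MXD3 fell further. PRELID1, a mitochondrial lipid transfer gene, had log2 fold changes of 0.19 ± 0.15 in OCI-LY3 and 0.17 ± 0.15 in SU-DHL6 and was not called. The genes whose log2 CPM was most like that of MXD3 over the 12 libraries were NXT1 (Pearson correlation 0.983), TEDC1 (0.982) and HMGA1 (0.974).

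MXD4, a member linked to differentiation and quiescence, had the largest change called with selinexor among the members of the network. MYCL, which is not counted as a member, rose further on the log2 scale in each line. Treated OCI-LY3 had 115, 120 and 90.3 CPM of MXD4 against 23.3, 25.5 and 27.8 CPM in untreated OCI-LY3. Every treated library was thus more than 3 times the highest untreated library, and MXD4 rose 4.24-fold, a log2 fold change of 2.09 ± 0.15 (SE, n = 3 each, adjusted p = 1.09e-07 by edgeR). Treated SU-DHL6 had 88.8, 77.5 and 89.1 CPM against 57.9, 77.3 and 84.0 CPM in untreated SU-DHL6. The SU-DHL6 groups overlapped and the log2 fold change of 0.22 ± 0.14 did not pass the test (adjusted p = 0.231), whereas under total counts it was 0.49 (adjusted p = 0.00759). The responses differed by -1.86 ± 0.21 (SU-DHL6 minus OCI-LY3, adjusted p = 1.23e-05). Group means were 108 ± 15.9 CPM in treated OCI-LY3 and 25.5 ± 2.22 CPM in untreated OCI-LY3 (SD, n = 3 each). They were 85.1 ± 6.64 CPM in treated SU-DHL6 and 73.0 ± 13.6 CPM in untreated SU-DHL6. MXD4 lies at chr4:2247432-2262294 on the minus strand of GRCh38 and shares exon bases only with the microRNA gene MIR4800, which had 12 counts in all libraries together.

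The promoters of MXD4 and MXD3 are shown because these antagonists moved in opposite directions in OCI-LY3. Both windows run 5′ to 3′ on the gene's strand from 250 bases before to 50 bases after the start in the RefSeq table (GRCh38.p14), at chr4:2262060-2262359 for MXD4 and chr5:177312703-177313002 for MXD3, both on the minus strand. Capitals mark the E-box CACGTG, which reads the same on both strands, and the CCAAT box, written ATTGG where it lies on the other strand; these motifs do not overlap here.
MXD4: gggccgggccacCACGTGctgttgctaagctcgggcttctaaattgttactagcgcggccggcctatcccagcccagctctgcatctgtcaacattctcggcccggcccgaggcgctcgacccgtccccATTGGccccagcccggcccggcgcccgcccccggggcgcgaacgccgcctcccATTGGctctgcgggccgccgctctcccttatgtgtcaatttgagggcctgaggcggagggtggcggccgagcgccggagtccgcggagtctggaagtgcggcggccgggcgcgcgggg
MXD3: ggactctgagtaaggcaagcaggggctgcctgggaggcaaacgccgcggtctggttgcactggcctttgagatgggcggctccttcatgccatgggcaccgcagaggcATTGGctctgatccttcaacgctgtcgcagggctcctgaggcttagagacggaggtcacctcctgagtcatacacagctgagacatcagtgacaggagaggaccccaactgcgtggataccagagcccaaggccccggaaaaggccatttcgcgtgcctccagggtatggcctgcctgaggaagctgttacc
The MXD4 window holds an E-box at position -238 from the start and 2 CCAAT boxes, and the MXD3 window holds a CCAAT box at position -142 and no CACGTG. Of 35116 promoters in the table, 7.26% hold CACGTG and 34.6% hold CCAAT on either strand. Of the 9 members with a promoter in the table, MXD4, MNT and MLX have an E-box, and these matches are descriptions of the letters in the windows. Beyond the promoters, the genes most like MXD4 in log2 CPM over the 12 libraries were ARSG (Pearson correlation 0.979) and GALNS (0.978), both encoding lysosomal sulfatases, and TNS3 (0.976).

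MXI1, also called MXD2 (chr10:110207605-110287365, plus strand, GRCh38), had 18.2, 17.2 and 13.6 CPM in treated OCI-LY3 against 23.3, 27.5 and 36.3 CPM in untreated OCI-LY3. In SU-DHL6 it had 8.75, 8.43 and 11.7 CPM with selinexor against 11.9, 11.7 and 17.4 CPM without. The third SU-DHL6 library was the highest of its group in both conditions, and the groups were separate in both lines, narrowly so in SU-DHL6. MXI1 fell by 0.83 ± 0.20 in OCI-LY3 (log2, SE, n = 3 each, adjusted p = 0.00446 by edgeR). Its log2 fold change of -0.50 ± 0.21 in SU-DHL6 did not pass the test (adjusted p = 0.0663), but it did without the third treated library (-0.67, adjusted p = 0.0343) and without the first untreated one (-0.60, adjusted p = 0.0497). The difference between the responses was 0.33 ± 0.29 and was not called (adjusted p = 0.417).

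MNT, the broadly expressed antagonist of MYC (chr17:2384060-2401118, minus strand), had 43.4, 46.6 and 32.2 CPM in treated OCI-LY3 against 37.9, 36.9 and 34.6 CPM in untreated OCI-LY3. The SU-DHL6 values were 35.4, 41.4 and 38.3 CPM with selinexor against 25.7, 35.4 and 33.3 CPM without. The treated libraries of SU-DHL6 lay just above the untreated ones, those of OCI-LY3 overlapped, and MNT was not called in either line (0.16 ± 0.15 in OCI-LY3, adjusted p = 0.412 by edgeR, and 0.29 ± 0.15 in SU-DHL6, adjusted p = 0.133). Under total counts MNT was called higher in SU-DHL6 (0.56, adjusted p = 0.00548). With both libraries that stood apart left out, it was called higher in OCI-LY3 (0.30, adjusted p = 0.0269).

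**Figure D3:**
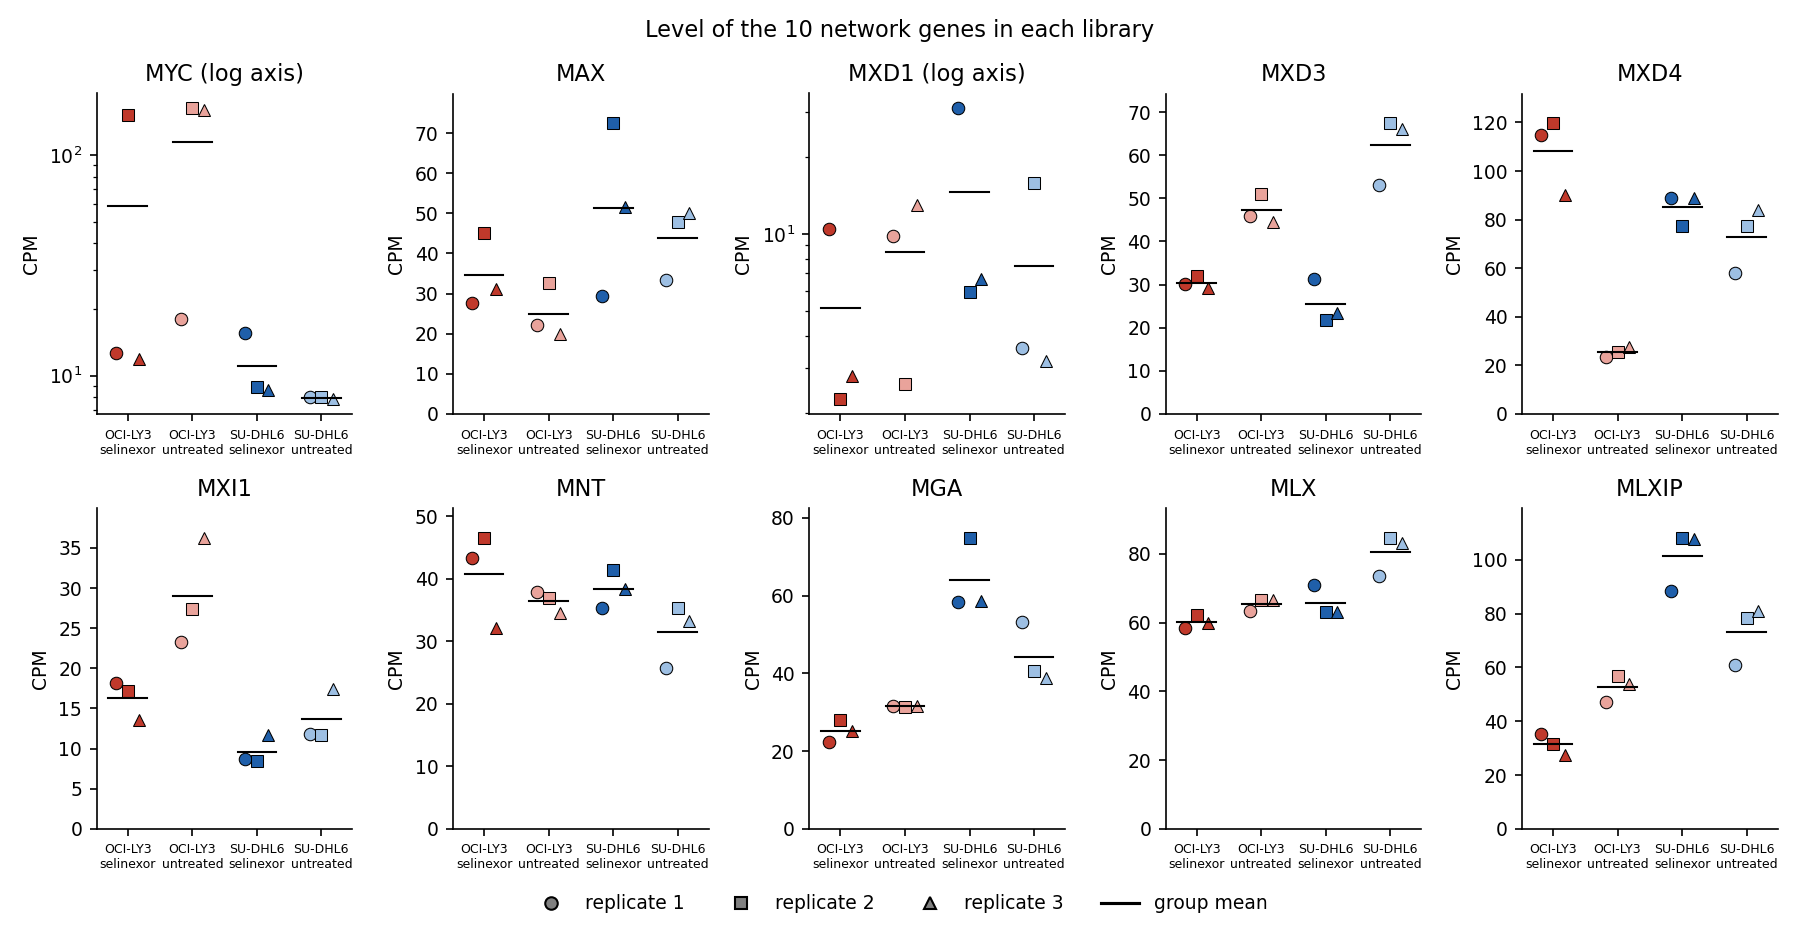
CPM of each of the 10 network genes in each library, by group, with replicates as marker shapes and group means as lines; the axes of MYC and MXD1 are logarithmic and the others start at 0. Treated and untreated libraries separate in both lines for MXD3, MXI1, MLXIP, MLX and MGA. They also separate for MXD4 in OCI-LY3 and for MYC and MNT in SU-DHL6. MYC in OCI-LY3 and MXD1 in all groups scatter severalfold.

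Levels of different genes were compared per transcript length, and by that measure MXD4 made up more of 5 MAX-binding repressors in treated cells. MGA, which also competes for MAX, was left out of this sum. The share of MXD4 in the summed FPKM (fragments scaled by transcript length and library total) of MXD1, MXD3, MXD4, MXI1 and MNT was 55.4%, 57.0% and 55.4% in treated OCI-LY3 against 17.5%, 18.3% and 18.6% in untreated OCI-LY3. In SU-DHL6 the share was 49.1%, 52.8% and 55.2% with selinexor against 38.7%, 38.6% and 41.8% without. The treated libraries lay above the untreated ones in both lines (two-sided exact permutation test, p = 0.1 in each line and 0.1 after adjustment over 4 comparisons, the smallest p that 3 against 3 libraries allow). A share within a library does not depend on the scaling between libraries. In SU-DHL6 the mean FPKM of MXD3 was 3.53 with selinexor and 7.16 without, and that of MXD4 was 11.1 and 7.92. By its counts, MXD4 was not called in that line. The summed FPKM of these 5 repressors was 19.6, 20.3 and 15.8 in treated OCI-LY3 and 14.0, 14.4 and 15.4 in untreated OCI-LY3. For SU-DHL6 the sums were 23.0, 19.2 and 21.7 with selinexor and 16.9, 21.5 and 21.4 without, so they overlapped in SU-DHL6. These sums are scaled by library total and not by TMM factors, so their comparison between groups depends on that scaling. Per unit of MYC FPKM, the repressors summed to 16.9, 1.42 and 14.2 in treated OCI-LY3 and to 7.59, 0.878 and 0.957 in untreated OCI-LY3. In SU-DHL6 that ratio was 11.9, 17.0 and 19.3 with selinexor and 19.2, 25.7 and 26.6 without. The groups overlapped in both lines, in SU-DHL6 only through the third treated and the first untreated library. MYCL was left out of this ratio, so it does not set the repressors against all MYC-type activators. The mean FPKM of MYCL was 9.21 in treated and 1.31 in untreated OCI-LY3, and 1.97 in treated and 0.331 in untreated SU-DHL6.

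**Figure D4:**
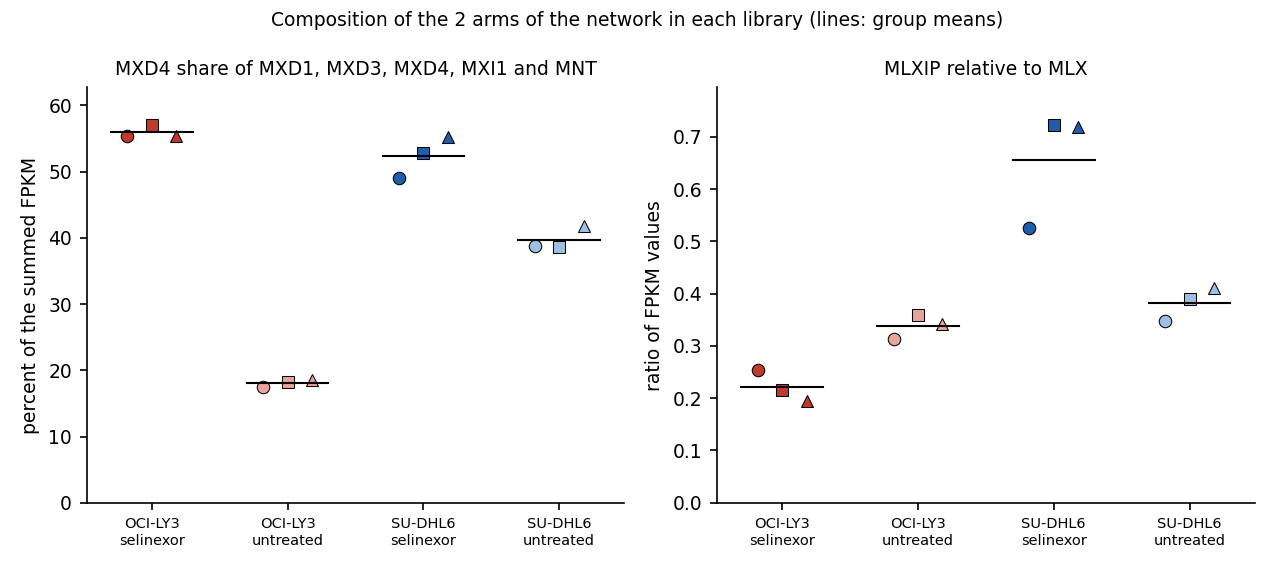
Left, the percentage of MXD4 in the summed FPKM of MXD1, MXD3, MXD4, MXI1 and MNT in each library; right, the FPKM of MLXIP divided by that of MLX; circles, squares and triangles are replicates 1, 2 and 3, and lines are group means. The MXD4 share lies between 55.4% and 57.0% in treated OCI-LY3 and between 17.5% and 18.6% in untreated OCI-LY3, and treated libraries have the lower MLXIP ratio in OCI-LY3 and the higher one in SU-DHL6.

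MLXIP, the glucose-sensing partner of MLX (chr12:122078722-122147347, plus strand, GRCh38), moved in opposite directions in the lines. Treated OCI-LY3 had 35.1, 31.7 and 27.6 CPM against 47.2, 56.7 and 54.0 CPM in untreated OCI-LY3. Treated SU-DHL6 had 88.3, 108 and 108 CPM against 60.8, 78.3 and 81.0 CPM in untreated SU-DHL6. Neither pair of groups overlapped: MLXIP fell by 0.74 ± 0.14 in OCI-LY3 (log2, SE, n = 3 each, adjusted p = 0.000559 by edgeR) and rose by 0.47 ± 0.13 in SU-DHL6 (adjusted p = 0.0114). The difference between the responses was 1.21 ± 0.19 (adjusted p = 0.000246).

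MLX, which MLXIP needs to bind DNA (chr17:42567068-42573239, plus strand), had 58.3, 62.2 and 59.9 CPM in treated OCI-LY3 against 63.3, 66.5 and 66.4 CPM in untreated OCI-LY3. In SU-DHL6 it had 70.8, 63.1 and 63.0 CPM with selinexor against 73.4, 84.7 and 83.1 CPM without. The groups were separate in both lines, but the log2 fold changes were small, at -0.12 ± 0.09 in OCI-LY3 (SE, adjusted p = 0.313 by edgeR) and -0.29 ± 0.09 in SU-DHL6 (adjusted p = 0.0191). The call in SU-DHL6 was lost without the second or the third treated library (-0.26, adjusted p = 0.0697, and -0.27, adjusted p = 0.0691) and without the second or the third untreated one (-0.26, adjusted p = 0.0671, and -0.24, adjusted p = 0.0983). It was also lost under total counts (-0.027, adjusted p = 0.837), and in OCI-LY3 that scaling called a fall (-0.23, adjusted p = 0.0416). MLX shares 770 exon bases with PSMC3IP on the opposite strand; PSMC3IP, a gene of meiotic recombination, had 6.51% of the count of MLX and fell in both lines. Per length, the ratio of MLXIP to MLX was 0.253, 0.215 and 0.194 in treated OCI-LY3 against 0.314, 0.359 and 0.342 in untreated OCI-LY3. It was 0.525, 0.722 and 0.718 in treated SU-DHL6 against 0.349, 0.389 and 0.410 in untreated SU-DHL6, so the ratio separated the groups in opposite directions (two-sided exact permutation test, p = 0.1 in each line, the smallest possible).

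The promoters of MLXIP and MLX are shown since these genes encode a working pair whose ratio separated treated from untreated libraries in opposite directions. The windows, made in the same way from the RefSeq table, lie at chr12:122078506-122078805 for MLXIP and at chr17:42566850-42567149 for MLX, both on the plus strand. Capitals mark CACGTG, the CCAAT box (ATTGG on the other strand) and the cAMP response element TGACGTCA, which reads the same on both strands; none of these overlap here.
MLXIP: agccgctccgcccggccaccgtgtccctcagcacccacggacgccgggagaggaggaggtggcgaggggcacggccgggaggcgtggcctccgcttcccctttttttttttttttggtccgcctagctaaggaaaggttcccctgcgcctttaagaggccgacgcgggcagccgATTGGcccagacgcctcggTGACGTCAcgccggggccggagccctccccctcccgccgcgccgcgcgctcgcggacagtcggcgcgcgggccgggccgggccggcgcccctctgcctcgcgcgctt
MLX: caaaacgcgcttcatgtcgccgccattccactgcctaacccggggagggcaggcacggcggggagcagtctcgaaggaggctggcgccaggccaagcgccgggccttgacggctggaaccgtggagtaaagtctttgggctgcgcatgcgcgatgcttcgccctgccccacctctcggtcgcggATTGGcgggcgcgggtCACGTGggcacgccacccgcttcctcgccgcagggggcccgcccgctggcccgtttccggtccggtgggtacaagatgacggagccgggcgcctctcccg
The MLX window holds an E-box at position -50 and a CCAAT box at position -66. The MLXIP window holds no E-box, but a CCAAT box at position -76 and a cAMP response element at position -57, a motif found in 1.85% of the 35116 promoters.

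Of the 4 genes listed as targets of MLX and MLXIP, 3 were tested, since ARRDC4 had almost no counts. TXNIP, the best-known target and an inhibitor of glucose uptake, rose in both lines. Treated OCI-LY3 had 87.0, 87.0 and 106 CPM of TXNIP against 59.8, 59.6 and 61.1 CPM in untreated OCI-LY3, and treated SU-DHL6 had 243, 229 and 218 CPM against 68.4, 56.3 and 70.4 CPM in untreated SU-DHL6. The log2 fold changes were 0.63 ± 0.11 in OCI-LY3 (adjusted p = 0.000301 by edgeR) and 1.82 ± 0.11 in SU-DHL6 (adjusted p = 1.86e-08), with a difference of 1.19 ± 0.15 (adjusted p = 4.30e-05). KLF10, a zinc finger repressor, fell by 0.56 ± 0.10 in OCI-LY3 and had a log2 fold change of -0.19 ± 0.10 in SU-DHL6 (adjusted p = 0.126). The remaining tested target, PFKFB3, was not called in either line.

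MGA, the large scaffold that pairs with MAX in the polycomb complex PRC1.6 (chr15:41621224-41773081, plus strand, GRCh38), was higher with selinexor in SU-DHL6. Treated SU-DHL6 had 58.3, 74.9 and 58.5 CPM against 53.1, 40.6 and 38.9 CPM in untreated SU-DHL6. Treated OCI-LY3 had 22.3, 28.0 and 25.2 CPM against 31.7, 31.4 and 31.6 CPM in untreated OCI-LY3. The groups were separate in both lines, in opposite directions. MGA rose by 0.53 ± 0.14 in SU-DHL6 (log2, SE, n = 3 each, adjusted p = 0.00689 by edgeR), and its log2 fold change of -0.33 ± 0.14 in OCI-LY3 did not pass the test (adjusted p = 0.0786). It did pass in OCI-LY3 without the first untreated SU-DHL6 library (-0.33, adjusted p = 0.0362), in the fit of OCI-LY3 alone (-0.34, adjusted p = 0.0253) and under total counts (-0.44, adjusted p = 0.0330). The difference between the responses was 0.86 ± 0.20 (adjusted p = 0.00392).

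Of 10 other genes of the MGA complex, 2 rose and 4 fell in OCI-LY3, and 3 rose and 3 fell in SU-DHL6. With 22.2% of all tested genes called each way in OCI-LY3, and 20.4% higher and 22.8% lower in SU-DHL6, these counts are no result about the complex. RYBP, which stimulates the complex's ubiquitin ligase, rose in both lines, by 0.90 ± 0.10 in OCI-LY3 and 1.05 ± 0.10 in SU-DHL6. PCGF6, the subunit that defines this form of the complex, fell in both, by 1.75 ± 0.19 in OCI-LY3 and 0.98 ± 0.17 in SU-DHL6. RING1, a ubiquitin ligase subunit, rose by 0.62 ± 0.13 in OCI-LY3 and fell by 0.36 ± 0.13 in SU-DHL6.

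Of 11 SIN3 and NCOR genes tested, which encode corepressors that MXD proteins and MNT recruit, 3 rose and 3 fell in OCI-LY3, and 3 rose and 4 fell in SU-DHL6, where the falls numbered 2 without the third treated library. These numbers are also near the shares of all tested genes, 22.2% each way in OCI-LY3 and 20.4% higher and 22.8% lower in SU-DHL6. SIN3B, a scaffold of the SIN3 complex, rose by 0.81 ± 0.13 in OCI-LY3 and 0.70 ± 0.13 in SU-DHL6. SAP30, a small SIN3 subunit, fell by 1.58 ± 0.14 in OCI-LY3 and 0.46 ± 0.13 in SU-DHL6, and these responses differed by 1.12 ± 0.19 (adjusted p = 0.000348 by edgeR).

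The targets of the network were described by lists. Of 57 genes known to be activated by MYC, 3 rose, 31 fell and 23 were not called in OCI-LY3, with a median log2 fold change of -0.41 against 0 over all tested genes. In SU-DHL6, 23 rose, 12 fell and 22 were not called, with a median of 0.26 against 0.0028 over all tested genes. Of all tested genes, 22.2% rose and 22.2% fell in OCI-LY3, and 20.4% rose and 22.8% fell in SU-DHL6. The difference between the responses was called higher for 27 and lower for 4 of the list, beside 17.0% and 19.9% of all tested genes. Under total counts 1 of the list rose and 38 fell in OCI-LY3, where 2939 of all genes rose and 4388 fell. In SU-DHL6, 38 of the list rose and 8 fell under that scaling, where 5451 of all genes rose and 2367 fell. With both libraries that stood apart left out, 3 of the list rose and 30 fell in OCI-LY3, and 23 rose and 16 fell in SU-DHL6. The count of 3 rises in OCI-LY3 was 1 without the third untreated OCI-LY3 library and 5 without the first or the second untreated SU-DHL6 library.

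The targets named here are those with the smallest adjusted p in each line and direction. HK2, the hexokinase at the entry to glycolysis, had 46.6, 43.5 and 45.0 CPM in treated OCI-LY3 against 186, 184 and 186 CPM in untreated OCI-LY3. The SU-DHL6 values were 103, 117 and 116 CPM with selinexor against 73.9, 73.2 and 69.2 CPM without. HK2 thus fell by 2.04 ± 0.09 in OCI-LY3 (adjusted p = 1.05e-09 by edgeR) and rose by 0.63 ± 0.08 in SU-DHL6 (adjusted p = 3.77e-05). MCM4, a subunit of the replicative helicase, fell by 1.57 ± 0.11 in OCI-LY3 and 2.44 ± 0.11 in SU-DHL6. Its partner MCM5 fell by 0.43 ± 0.10 in OCI-LY3 and 2.53 ± 0.10 in SU-DHL6, and UNG, a DNA repair glycosylase, fell by 0.69 ± 0.10 in OCI-LY3 and by 2.14 ± 0.10 in SU-DHL6. The nucleolar genes GNL3 and MPHOSPH10 fell in OCI-LY3, by 0.37 ± 0.09 and 0.43 ± 0.14, and rose in SU-DHL6, by 0.97 ± 0.10 and 1.34 ± 0.14. ODC1, the first enzyme of polyamine synthesis, rose in both lines, by 0.69 ± 0.09 in OCI-LY3 and 1.21 ± 0.09 in SU-DHL6. NOP56, a small nucleolar ribonucleoprotein subunit, also rose in both, by 0.23 ± 0.08 and 0.33 ± 0.08, and PRMT3, an arginine methyltransferase, fell by 1.38 ± 0.12 in OCI-LY3 and had a log2 fold change of 0.18 ± 0.11 in SU-DHL6 (adjusted p = 0.217).

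Of 7 genes that MYC is known to repress, 5 were tested; 3 rose and none fell in OCI-LY3, where under total counts 1 fell, and 1 rose and 2 fell in SU-DHL6. The shares of all tested genes were 22.2% each way in OCI-LY3, and 20.4% higher and 22.8% lower in SU-DHL6. CDKN1A, the cell cycle inhibitor p21, had 516, 512 and 460 CPM in treated OCI-LY3 against 217, 219 and 221 CPM in untreated OCI-LY3. In SU-DHL6 it had 10.0, 9.95 and 7.49 CPM with selinexor against 57.5, 65.3 and 64.4 CPM without. CDKN1A thus rose by 1.18 ± 0.11 in OCI-LY3 and fell by 2.77 ± 0.12 in SU-DHL6, and it is also a target of p53. GADD45A, a stress response gene, rose by 0.67 ± 0.18 in OCI-LY3 and fell by 0.88 ± 0.19 in SU-DHL6. NDRG1, a gene induced by hypoxia and stress, rose by 1.05 ± 0.16 in OCI-LY3 and 1.74 ± 0.22 in SU-DHL6.

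**Figure D5:**
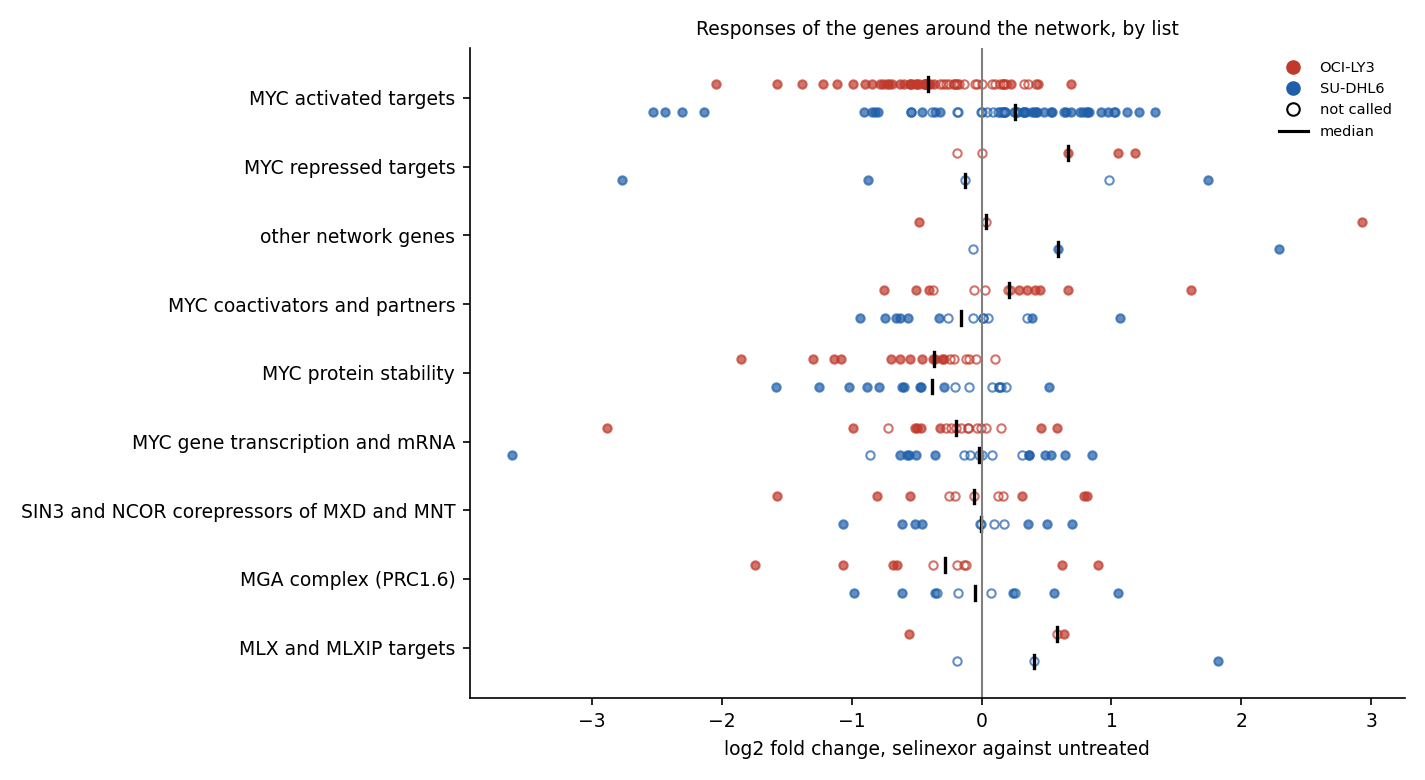
Log2 fold change of each tested gene of 9 lists around the network, selinexor against untreated, in OCI-LY3 (red) and SU-DHL6 (blue); filled points passed an adjusted p under 0.05 and black bars are list medians. The median of the MYC-activated genes is -0.41 in OCI-LY3 and 0.26 in SU-DHL6.

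Genes that act on MYC itself were counted by role. Of 14 coactivators and partners, 6 rose and 3 fell in OCI-LY3 and 2 rose and 6 fell in SU-DHL6; the rises in OCI-LY3 numbered 3 without its second treated library, and those in SU-DHL6 numbered 1 without the second or the third treated library of that line. Beside them stand 22.2% of all tested genes called each way in OCI-LY3, and 20.4% called higher and 22.8% lower in SU-DHL6. KAT2A, a histone acetyltransferase, rose by 1.61 ± 0.17 in OCI-LY3 and 1.06 ± 0.16 in SU-DHL6. WDR5, which anchors MYC to chromatin, fell by 0.75 ± 0.11 in OCI-LY3 and had a log2 fold change of -0.25 ± 0.11 in SU-DHL6 (adjusted p = 0.0731 by edgeR). KAT5, another acetyltransferase, fell by 0.94 ± 0.10 in SU-DHL6 and had a log2 fold change of 0.22 ± 0.10 in OCI-LY3 (adjusted p = 0.100).

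Of the 18 genes measured among those that set the stability of MYC protein, none rose and 12 fell in OCI-LY3, with a median log2 fold change of -0.37. In SU-DHL6 1 rose and 10 fell, with a median of -0.38; the rises numbered 3 without the first untreated library, and under total counts 6 rose and 6 fell, where 5451 of all genes rose and 2367 fell. Over all tested genes, 22.2% were called each way in OCI-LY3, and 20.4% higher and 22.8% lower in SU-DHL6, with medians of 0 and 0.0028. Many of them are mitotic or stress kinases and ligases with other substrates. PLK1 and AURKA, mitotic kinases that stabilise MYC proteins, fell in both lines, PLK1 by 1.85 ± 0.15 in OCI-LY3 and 1.25 ± 0.15 in SU-DHL6, and AURKA by 1.14 ± 0.19 and 1.58 ± 0.19. PIM1, a kinase that phosphorylates MYC, fell by 0.29 ± 0.09 in OCI-LY3 and 0.88 ± 0.09 in SU-DHL6. FBXW7, the ubiquitin ligase subunit that marks MYC for degradation, had 30.8, 33.1 and 31.3 CPM in treated OCI-LY3 against 51.4, 48.7 and 53.9 CPM in untreated OCI-LY3. In SU-DHL6 it had 26.9, 30.5 and 27.8 CPM with selinexor against 22.9, 20.4 and 16.0 CPM without, so it fell by 0.69 ± 0.12 in OCI-LY3 and rose by 0.52 ± 0.13 in SU-DHL6.

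Of 19 genes that act on transcription of the MYC gene or on its mRNA, 2 rose and 6 fell in OCI-LY3, and 6 rose and 6 fell in SU-DHL6. The matching shares of all tested genes were 22.2% each way in OCI-LY3, and 20.4% higher and 22.8% lower in SU-DHL6. IRF4, a B-cell factor that activates MYC in activated B cells, fell by 0.99 ± 0.08 in OCI-LY3 and 0.51 ± 0.08 in SU-DHL6. CDK9, the elongation kinase, rose by 0.46 ± 0.11 in OCI-LY3 and fell by 0.57 ± 0.11 in SU-DHL6, and CTCF, which insulates the MYC domain, fell by 0.32 ± 0.08 and 0.63 ± 0.08. EIF4E, which helps MYC mRNA leave the nucleus with XPO1, had 10.2, 24.1 and 26.4 CPM in treated OCI-LY3 against 32.9, 33.7 and 33.6 CPM in untreated OCI-LY3. The SU-DHL6 values were 15.0, 16.2 and 13.1 CPM with selinexor against 16.9, 13.2 and 5.42 CPM without. EIF4E disagreed between replicates in 2 of the groups and was not called in OCI-LY3 (-0.72 ± 0.38, adjusted p = 0.156) or in SU-DHL6 (0.31 ± 0.39, adjusted p = 0.563).

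The 2 lines were also compared without selinexor. Untreated OCI-LY3 was above untreated SU-DHL6 for MYC and MXI1 and below it for MXD4, MLXIP, MLX, MAX, MGA and MXD3. These 2 and 6 members stand beside 33.6% of all tested genes that were higher and 33.7% that were lower in OCI-LY3, and the libraries of the lines did not overlap for 8 members, against 70.9% of all genes. With 10 members and shares this high over all genes, these counts are no result about the network. The median over the members was -0.35 against -0.03 over all tested genes. MYC was higher by 3.85 ± 1.22 on the log2 scale (SE, n = 3 each, adjusted p = 0.0209 by edgeR), with its lowest OCI-LY3 library at 18.1 CPM and its highest SU-DHL6 library at 8.02 CPM. The adjusted p of MYC lay between 0.0505 and 0.0627 when the second or the third untreated OCI-LY3 library or any untreated SU-DHL6 library was left out, with log2 differences of 3.49 to 3.85.

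Untreated OCI-LY3 had less MXD4 (log2 difference -1.52 ± 0.15, adjusted p = 4.47e-07 by edgeR) and more MXI1 (1.09 ± 0.21, adjusted p = 0.000302). MLXIP (-0.48 ± 0.13), MGA (-0.49 ± 0.14) and MLX (-0.30 ± 0.09) were also lower in OCI-LY3. MAX was also lower (-0.81 ± 0.33, adjusted p = 0.0480). Its adjusted p was between 0.0564 and 0.144, at log2 differences of -0.82 to -0.67, when the first or the third treated OCI-LY3 library, the first or the third untreated one, the third treated SU-DHL6 library or the second or the third untreated one was left out. MXD3 was lower (-0.40 ± 0.14, adjusted p = 0.0201) and lost the call without the first or the third untreated OCI-LY3 library (-0.38, adjusted p = 0.0614, and -0.36, adjusted p = 0.0722) or without the second or the third untreated SU-DHL6 library (-0.34 in both, adjusted p = 0.0747 and 0.0785). MXD1 (0.16 ± 0.99, adjusted p = 0.897) and MNT (0.21 ± 0.15, adjusted p = 0.218) were not called.

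Among the 10 members ranked by FPKM, MYC led in untreated OCI-LY3 at 11.5 ± 8.32 (SD, n = 3), followed by MLX at 7.17 ± 0.13, but their library values overlapped. MXD3 came next at 5.19 ± 0.36, then MXI1, MNT, MXD4 and MLXIP between 3.14 and 2.43, whose neighbours overlapped, then MAX at 1.58 ± 0.42, and MGA and MXD1 below 1. In treated OCI-LY3, MXD4 led at 10.4 ± 1.47, clear of MLX at 6.09 ± 0.26, and MYC came after MLX at 5.51 ± 7.57. MYCL, which is not a member and was not ranked, had a mean of 9.21 FPKM in treated OCI-LY3. Its libraries lay between 8.53 and 9.64 FPKM, overlapping those of MXD4. In untreated SU-DHL6, MLX at 9.23 ± 0.41, MXD4 at 7.92 ± 1.23 and MXD3 at 7.16 ± 0.70 led with overlapping neighbours, and MYC was ninth at 0.840 ± 0.038. In treated SU-DHL6, MXD4 led at 11.1 ± 0.94, followed by MLX at 9.06 ± 0.41 and MLXIP at 5.90 ± 0.79, each clear of the gene ranked before it, and MYC stood eighth at 1.39 ± 0.47. The first rank thus went to MXD4 in the treated groups of both lines and to MYC or MLX in the untreated ones, by mean FPKM.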

How the data were processed

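The authors deposited, for each gene and each of the 12 libraries, a whole-number count and a value in FPKM, per the file headers. The deposited counts were tested as they stand. The deposited FPKM values (fragments scaled by transcript length and library total) were used to compare genes with each other. Their sums, shares and ratios were also compared between groups. No aligner, counting tool or use of strand is given in the sources used here. Mouse builds (GRCm38, mm10) stand in the submitters' processing notes, but the identifiers are human: 58039 were found in GENCODE 29 on GRCh38, 97.5% of them with identical coordinates, and 263 were not.

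Samples were grouped by line and treatment as their titles give them, with 3 libraries per group. In R 4.3.3, edgeR 4.0.16 was applied with filterByExpr by group (16474 genes kept), TMM scaling and 1 negative binomial model over all 12 libraries. The robust quasi-likelihood F test was run for each contrast with Benjamini-Hochberg adjustment over all tested genes. Genes with an adjusted p below 0.05 count as called, and rose, fell, higher and lower in statements of calls refer to this threshold. The SE was obtained from the log2 fold change and the F statistic (log2 fold change over root F). The procedure was tested on counts simulated from a negative binomial model with the estimated spread. Of changes of 1 log2 unit, 75.9% were recovered in OCI-LY3 and 81.1% in SU-DHL6, so changes of that size can be missed. Of changes of 2 log2 units, 100% and 96.4% were recovered.

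The members and the 9 gene lists were chosen with earlier results of these data known, and the target lists draw on textbook knowledge. All 10 members were named in every contrast, and from each list up to 3 called genes per direction and line with the smallest adjusted p, of which the text names some, together with PVT1, TXNIP, EIF4E, MYCN, MYCL and MLXIPL. Genes overlapping a member, HSD17B12 among the genes most like MYC, MYCBP and PFKFB3 were added for context. So were KAT5 and WDR5 in the line where they were not called. Alternatives were RLE, total-count and upper-quartile scaling, DESeq2 1.42.0, limma-voom (limma 3.58.1), no filter, a minimum of 10 CPM in 3 libraries, a fit of 1 line at a time, a block for the replicate number, and the removal of each library in turn. Leaving out both libraries that stood apart was chosen after seeing the data. A promoter was available for 9 of the 10 members in the RefSeq table. Values of some single genes are not reported here.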

Additional observations from a re-analysis of the deposited data

Results flagged for a closer look

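The genes below were marked because the test of the difference itself was called: the log2 response in SU-DHL6 minus that in OCI-LY3 passed an adjusted p under 0.05 by edgeR. Among the network genes, this difference was -1.86 for MXD4 (adjusted p = 1.23e-05), -0.65 for MXD3 (adjusted p = 0.0193), 1.21 for MLXIP (adjusted p = 0.000246) and 0.86 for MGA (adjusted p = 0.00392). MLXIP was called in opposite directions in the lines, whereas MXD4 was called in OCI-LY3 and MGA in SU-DHL6. The MXD3 difference was the weakest of these, since it was not called under total counts or without either of 2 SU-DHL6 libraries.

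Among MYC-activated genes, the difference was positive for HK2 (2.67), MPHOSPH10 (1.77), PRMT3 (1.56), GNL3 (1.34) and ODC1 (0.52). It was negative for MCM5 (-2.10), UNG (-1.45) and MCM4 (-0.86), which serve replication and DNA repair. Among MYC-repressed genes it was -3.95 for CDKN1A and -1.54 for GADD45A.

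Among genes that act on MYC, the difference was -1.14 for PVT1, -1.03 for CDK9 and 0.48 for IRF4. It was 1.21 for FBXW7, 0.60 for PLK1, -0.60 for PIM1, 1.07 for MYCBP2, 0.50 for WDR5 and -1.16 for KAT5. In the corepressor complexes it was 1.12 for SAP30, 0.77 for PCGF6 and -0.98 for RING1, and it was 1.19 for TXNIP, the target of MLX and MLXIP. Under total counts the median difference of all genes moved to 0.35, so the size of each difference depends on the scaling. Negative differences can move towards 0 and lose their call under that scaling, as that of MXD3 did.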

How the results depend on the processing

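The calls of MXD4, MXD3, MXI1 and MLXIP in OCI-LY3 and of MXD3 and MLXIP in SU-DHL6 held under every alternative run. Under total counts, 5 members fell in OCI-LY3, 4 rose and 1 fell in SU-DHL6 (5451 genes rose and 2367 fell there), and the difference was called lower for 1 member (4891 genes higher and 1817 lower). That scaling also reversed the uncalled differences of MAX (0.14) and MLX (0.21). In SU-DHL6, 1 member fell with no low-count filter and 1 in the fit of that line alone. For the untreated lines, 1 member was higher by DESeq2 and 1 by limma-voom (MYC 3.29, adjusted p = 0.0657), and DESeq2 gave no adjusted p for MYC. With both libraries that stood apart left out, 2 members rose in OCI-LY3, 1 was higher between the untreated lines, and the uncalled MNT difference (-0.15) and MXD1 line difference (-0.18) reversed. Leaving out each library gave 1 to 3 members lower in SU-DHL6, 1 to 2 lower for the difference and 1 to 2 higher between the untreated lines. It moved uncalled values between -0.11 and 0.50 (MAX in SU-DHL6), -0.26 and 2.09 (MXD1 in SU-DHL6), -0.59 and 0.023 (MAX difference), -0.019 and 0.23 (MNT difference) and -0.28 and 1.31 (MXD1 between the untreated lines). The cause was not tested. Deviations of same-numbered treated and untreated libraries correlated at -0.12 to 0.050, and those of differently numbered SU-DHL6 libraries at -0.096 to 0.105. No pairing by number was seen in these values, and whether same-numbered libraries share a culture or day was not tested. With the number as a block, 2 members rose in OCI-LY3 (MAX at 0.48, adjusted p = 0.0389), 1 fell in SU-DHL6 and 1 was lower for the difference. Over all genes the block gave 3305 rises and 3280 falls in OCI-LY3 and 2964 rises and 3396 falls in SU-DHL6. MXD1 had as few as 30 counts in a library, and what depth and the spread between replicates each add to the error of MYC and MXD1 was not tested.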
